A study of Mus musculus with 12 samples.

Results

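The genes of the amino acid stress response driven by the transcription factor ATF4, together with the enzymes that charge transfer RNAs, were followed in mouse embryonic stem cells given L-proline. They are 40 named genes, taken from a fixed list of symbols with transporters left out, among 18193 genes measured. All 40 were found, Mars under its newer symbol Mars1. They comprise 7 regulators, 8 stress effectors, 11 enzymes of amino acid and one-carbon metabolism and 14 aminoacyl-tRNA synthetases. Transcript levels come from 12 Affymetrix arrays of TBV2 cells, a wild-type embryonic stem cell line of the 129/SvP strain, plated sparsely on gelatin without feeder cells. The proline group (called PiCs) grew for 5 days with 500 µM L-proline, and the control group (ESCs) for 5 days without it. Both groups had leukemia inhibitory factor (LIF), and the complete medium in which the line was kept held no added non-essential amino acids. Each group has 2 numbered biological replicates of 3 arrays each. The labels do not explain the letters of the 3 arrays, which were averaged within each number, and tests ran on 2 values against 2. All cells are of 1 line, and p-values measure only the spread between these cultures, which may be partly technical.

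When amino acids run short, uncharged transfer RNA activates the kinase GCN2, which phosphorylates the translation factor eIF2. Protein synthesis then slows in general while translation of the Atf4 message rises, so that ATF4 activity is set largely by translation and not by the level of its mRNA. Stress of the endoplasmic reticulum, heme shortage and double-stranded RNA reach eIF2 through the kinases PERK, HRI and PKR. ATF4 binds with C/EBP partners to a composite response element and switches on genes for amino acid synthesis and tRNA charging, and, under longer stress, the factor CHOP and growth-arrest and death genes. In mouse embryonic stem cells, added L-proline is known to shift the naive pluripotent state.

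The core of that element, TGATGNAA (N is any base), was searched on both strands of RefSeq promoter windows running from 250 bases before to 50 bases after each annotated start site (GRCm38.p6). The RefSeq table used here held windows for 31 of the 40 members, and 12 of these 31 (38.7%) held the core, against 3.24% of the 14452 measured genes with a window and 3.97% of all windows. By role, the core was found in 2 of 7 regulators, 3 of 7 effectors, 2 of 9 metabolic enzymes and 5 of 8 synthetases that had a window. Such a match describes letters and is not a measured binding site. The members were listed as genes of the ATF4 response, so a higher share than in all genes may follow from how they were picked. The windows of 5 members are shown because these hold the core and are among the 16 members whose values are given in full. The 8 bases of the core are in capitals, and each line runs in the direction of the gene.
Nupr1: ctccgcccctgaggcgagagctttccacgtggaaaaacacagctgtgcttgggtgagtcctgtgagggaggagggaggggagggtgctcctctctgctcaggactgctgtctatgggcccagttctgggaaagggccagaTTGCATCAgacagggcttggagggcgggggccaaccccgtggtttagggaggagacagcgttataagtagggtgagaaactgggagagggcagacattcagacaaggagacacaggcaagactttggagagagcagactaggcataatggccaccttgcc
Chac1: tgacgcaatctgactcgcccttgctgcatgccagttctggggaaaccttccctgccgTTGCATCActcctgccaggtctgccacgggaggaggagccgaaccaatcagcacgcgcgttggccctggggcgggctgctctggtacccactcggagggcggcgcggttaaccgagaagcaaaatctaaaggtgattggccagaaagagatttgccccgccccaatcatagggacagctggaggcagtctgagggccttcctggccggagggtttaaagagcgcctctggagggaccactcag
Vldlr: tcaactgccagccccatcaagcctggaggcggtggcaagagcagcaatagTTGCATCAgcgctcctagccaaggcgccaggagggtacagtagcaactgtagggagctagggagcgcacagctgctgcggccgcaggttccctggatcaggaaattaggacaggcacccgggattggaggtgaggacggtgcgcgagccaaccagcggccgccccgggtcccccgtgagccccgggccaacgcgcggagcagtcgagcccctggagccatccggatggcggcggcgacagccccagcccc
Trib3: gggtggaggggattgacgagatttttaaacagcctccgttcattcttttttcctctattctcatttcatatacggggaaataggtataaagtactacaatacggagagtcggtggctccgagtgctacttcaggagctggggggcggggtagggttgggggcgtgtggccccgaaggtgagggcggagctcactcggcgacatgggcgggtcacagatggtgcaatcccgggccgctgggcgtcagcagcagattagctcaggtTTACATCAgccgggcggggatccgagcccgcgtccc
Asns: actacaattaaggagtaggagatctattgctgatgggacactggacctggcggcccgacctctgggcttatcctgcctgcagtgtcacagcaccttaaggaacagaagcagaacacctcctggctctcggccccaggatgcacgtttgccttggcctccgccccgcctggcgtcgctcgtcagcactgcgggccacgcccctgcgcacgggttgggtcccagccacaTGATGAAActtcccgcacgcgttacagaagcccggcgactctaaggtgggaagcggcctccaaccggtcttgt
The Nupr1 window is chr7:126625421-126625720 on the minus strand, Chac1 chr2:119350992-119351291 (plus), Vldlr chr19:27216770-27217069 (plus), Trib3 chr2:152344011-152344310 (minus) and Asns chr6:7693160-7693459 (minus). In Nupr1, Chac1 and Vldlr the core read TGATGCAA on the strand opposite to the gene, beginning 110, 193 and 200 bases before the start site. The core of Trib3, TGATGTAA on the opposite strand, began 14 bases after the start site, and that of Asns, TGATGAAA on the gene's own strand, 23 bases before it.

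**Figure D1:**
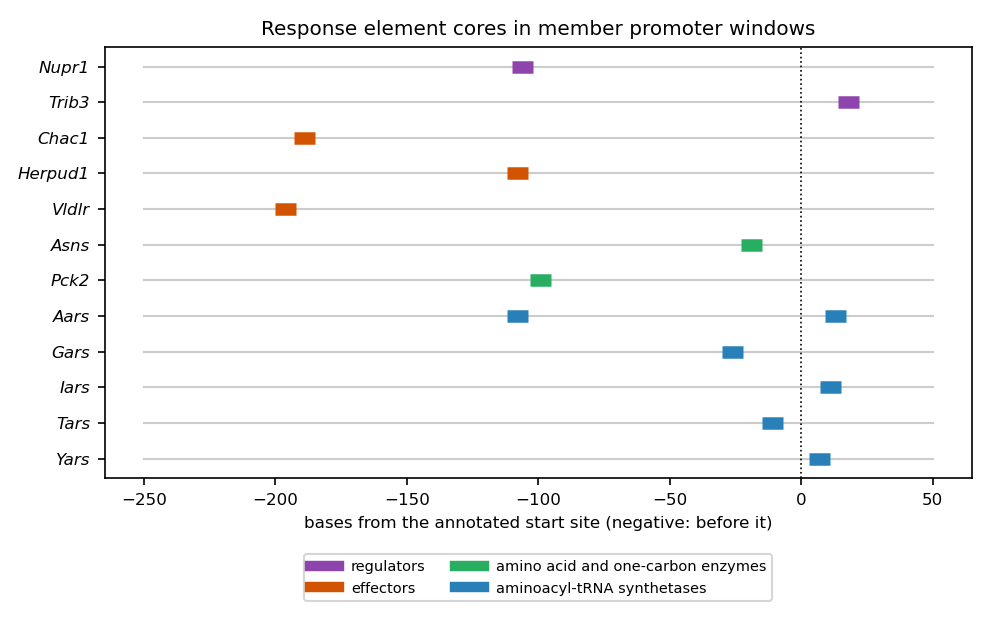
Position of the response element core TGATGNAA (coloured blocks, colour by role) in the promoter windows of the 12 members that hold it, in bases from the annotated start site. The Aars window holds 2 cores and the other 11 hold 1 each.

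Pearson's r between arrays was 0.996 to 0.998 within a biological replicate, 0.985 to 0.989 across the replicates of a group, and 0.962 to 0.981 across groups, over all probe sets. The cells carried the stem cell transcripts named by their label, with all 9 pluripotency markers, Pou5f1 among them, above the 40th percentile of probe sets (a log2 signal of 5.36). Their mean log2 signal was 12.2 and 12.1 in proline replicates 2 and 1, and 12.7 and 12.6 in control replicates 2 and 1. Proline minus control was below 0 for 8 of these 9 markers, against 10198 of 18193 genes. In limma, described below, 2 of the 9 were lower at an adjusted p under 0.05, against 1.34% of all genes. Of markers of other cell types, 4 of 8 fibroblast, 4 of 8 extraembryonic endoderm, 3 of 7 trophoblast and 2 of 6 measured neural genes lay under the 40th percentile. The mean log2 signal of the fibroblast list was 5.72 in proline replicate 2 and 5.19 in proline replicate 1, and 5.22 in control replicate 2 and 5.43 in control replicate 1. For extraembryonic endoderm the means were 5.88 and 5.78 in proline replicates 2 and 1, and 5.47 and 5.38 in control replicates 2 and 1. For trophoblast they were 5.61 and 5.26 in proline and 5.32 and 5.10 in control, in the same order. Neural markers averaged 6.67 and 6.84 in proline and 6.33 and 6.04 in control, again replicate 2 before replicate 1. These neural means cover opposite directions, since proline minus control was above 0 for 4 of the 6 genes and below 0 for 2. The differences ran from -1.94 for Tubb3 to 1.9999 for Nes. At an adjusted p under 0.05 in limma, 2 of the 6 were higher and 1 lower, against 3.03% and 1.34% of all genes. RNA measures differed by replicate number in both groups. For beta-actin the log2 signal of the 5' probe set less that of the 3' one, a measure of transcript integrity, was higher in replicate 2 by 0.42 in proline and 0.40 in control, and for Gapdh by 0.26 and 0.29. Signals of 18S ribosomal RNA were lower in replicate 2, with differences of -1.39 in proline and -0.70 in control. The poly-A spike-in controls were also lower in replicate 2 (-0.52 in proline, -0.39 in control), as were the hybridization spike-in controls (-0.25 and -0.13). Proline minus control was 0.25 for beta-actin, 0.06 for Gapdh, -1.35 for 18S ribosomal RNA, -0.44 for the poly-A and -0.24 for the hybridization spike-in controls. The part of these measures and of the marker lists in the member differences was not tested. In bulk cultures fewer cells of a kind and less RNA per cell cannot be told apart.

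The comparison of proline with control asks whether an added amino acid moved this response after 5 days. None of the 40 members passed the threshold, and the sign and size of their median difference varied with the cultures included. In limma, fitted over all genes with Benjamini-Hochberg adjustment, 0 of 40 members had an adjusted p under 0.05, against 4.36% of all genes (3.03% higher and 1.34% lower), and 4 of 40 had an unadjusted p under 0.05, against 22.1%. The median log2 difference, proline minus control, was -0.08 over the members and -0.03 over all genes, with 26 of 40 below 0, against 10198 of 18193 genes. The member median was -0.25 without control replicate 2 and 0.000482 without control replicate 1. At least a 2-fold difference was measured in 4 members (6.93% of all genes): Nupr1 and Aldh1l2 lower, Cebpb and Vldlr higher. For 30 of 40 members the proline or the control replicates differed from each other by more than the groups did, as for 60.1% of all genes.

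**Figure D2:**
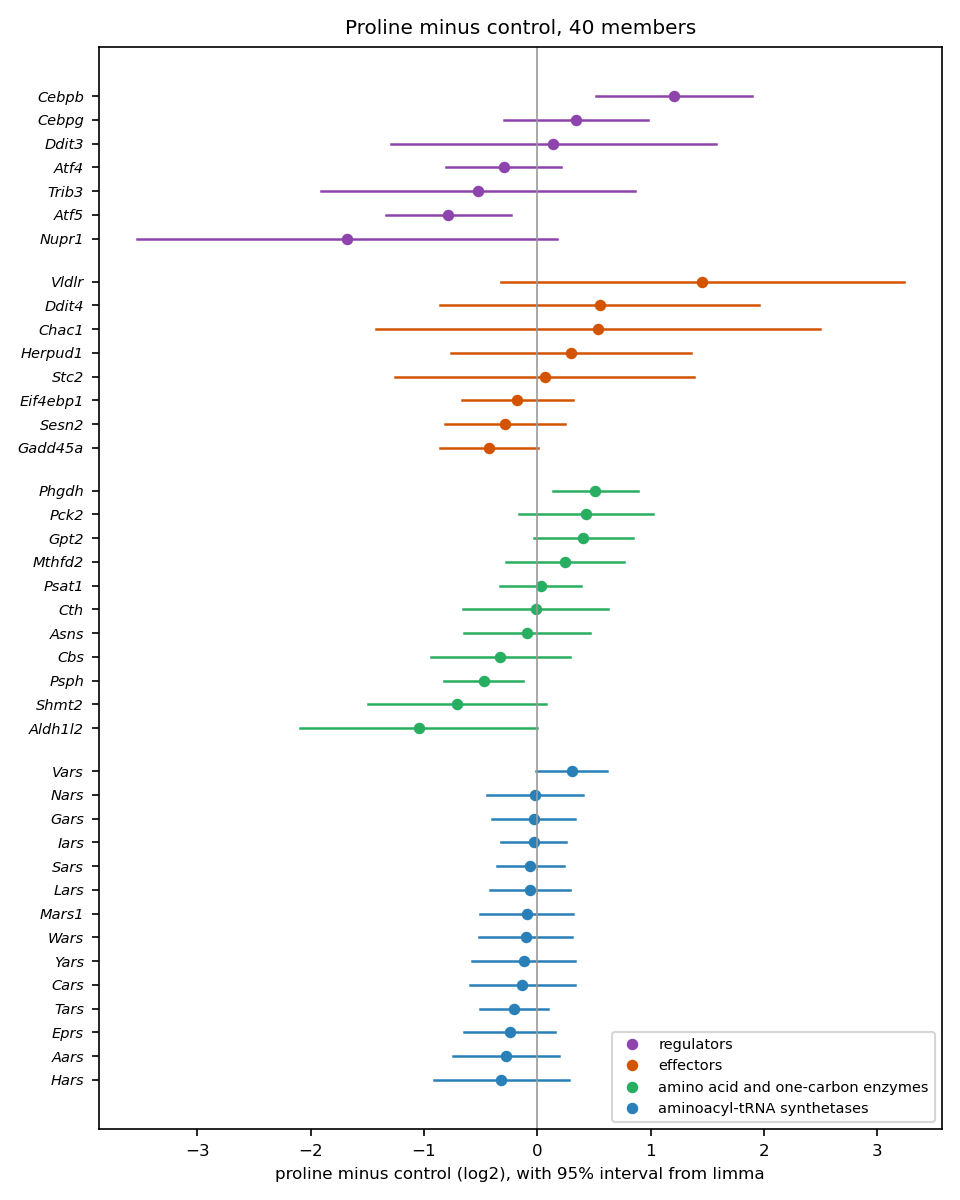
Proline minus control (log2) for the 40 members, grouped by role, with 95% intervals from limma (n = 2 biological replicates per group). By the median half-width the effectors have the widest intervals (1.19) and the synthetases the narrowest (0.40), and no member passed the threshold after adjustment.

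Among the regulators, Cebpb had the smallest p. Cebpb encodes C/EBP-beta, a bZIP factor that pairs with ATF4 and is itself induced under stress. It read 9.33 (9.13 to 9.53 over 3 arrays) in proline replicate 2 and 9.70 (9.51 to 9.97) in proline replicate 1, against 7.999 (7.95 to 8.07) in control replicate 2 and 8.62 (8.39 to 8.80) in control replicate 1. The 6 proline arrays all lay above the 6 control arrays. This separation of arrays, in either direction, held for 8 of 40 members and for 24.6% of all genes. The log2 difference of Cebpb was 1.204 ± 0.26 (moderated SE, 95% interval 0.52 to 1.89, limma adjusted p = 0.0848), a measured 2.30-fold, and its other probe set gave 1.24. The 4 differences of a proline from a control replicate ran from 0.71 to 1.70.

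Atf5, a close relative of Atf4 that is also controlled by translation, measured lower on all proline than on all control arrays. It read 8.05 (8.03 to 8.07) in proline replicate 2 and 7.96 (7.88 to 8.04) in proline replicate 1, against 8.52 (8.404 to 8.68) in control replicate 2 and 9.06 (8.97 to 9.15) in control replicate 1. The difference was -0.79 ± 0.21 (95% interval -1.34 to -0.23, limma adjusted p = 0.124). Nupr1, a small stress-induced chromatin protein, showed the same order with a far wider spread. It read 7.26 (7.17 to 7.33) in proline replicate 2 and 7.76 (7.67 to 7.82) in proline replicate 1, against 8.17 (8.09 to 8.29) in control replicate 2 and 10.21 (10.16 to 10.32) in control replicate 1. Control replicate 1 stood alone, and the difference of -1.68 ± 0.70 had a limma adjusted p of 0.265, with a 95% interval from -3.53 to 0.17. Against control replicate 2 alone, proline replicates 2 and 1 differed by -0.91 and -0.41.

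Atf4 itself read 12.09 (12.06 to 12.14) in proline replicate 2 and 11.72 (11.69 to 11.74) in proline replicate 1, against 12.05 (12.04 to 12.05) in control replicate 2 and 12.36 (12.35 to 12.37) in control replicate 1. The groups overlapped, and the difference was -0.30 ± 0.19 (limma adjusted p = 0.471). Ddit3, which encodes CHOP, and Trib3, a pseudokinase that restrains ATF4 and CHOP, differed by 0.14 ± 0.54 and -0.52 ± 0.53 (limma adjusted p = 0.923 and 0.655). Their intervals ran from -1.29 to 1.57 for Ddit3 and from -1.91 to 0.86 for Trib3, so that more than a 2-fold change either way lies within that of Ddit3. Cebpg, the preferred partner of ATF4 in many cells, measured 0.34 ± 0.24.

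The effectors had the widest intervals by their median. Vldlr, the receptor for very low density lipoprotein and a target of ATF4, read 7.27 (7.08 to 7.37) in proline replicate 2 and 8.02 (7.91 to 8.22) in proline replicate 1, against 5.25 (4.89 to 5.48) in control replicate 2 and 7.12 (7.03 to 7.17) in control replicate 1. The mean of control replicate 2 fell under the 40th percentile of probe sets (5.36), with arrays on both sides of it. Without detection calls, signal this dim was not shown to stand above background, so the folds of Vldlr are not exact. The difference of 1.46 ± 0.67 had a limma adjusted p of 0.307, and the 6 probe sets of Vldlr gave 0.35 to 1.96. Chac1, which degrades glutathione and is among the most responsive ATF4 targets, measured 0.54 ± 0.74 (95% interval -1.42 to 2.50). Ddit4, an inhibitor of mTORC1 also called REDD1, measured 0.55 ± 0.53. Herpud1, a component of endoplasmic reticulum degradation, measured 0.30 ± 0.40 and Stc2, a secreted stanniocalcin, 0.07 ± 0.50. The other probe sets of Stc2 gave 0.64 and 0.52. Lower in proline were Gadd45a, a DNA damage and growth arrest gene (-0.43 ± 0.16, limma adjusted p = 0.230), Sesn2, a leucine sensor of mTORC1 (-0.28 ± 0.20), and Eif4ebp1, which blocks cap-dependent translation (-0.18 ± 0.19), and none passed the threshold. Gadd45a read 9.23 (9.09 to 9.31) in proline replicate 2 and 9.16 (8.99 to 9.38) in proline replicate 1, against 9.44 (9.33 to 9.63) in control replicate 2 and 9.81 (9.67 to 9.93) in control replicate 1, and its groups overlapped.

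Among the 11 metabolic enzymes, 6 measured below 0 and 5 above, and none passed the threshold. Phgdh, which commits 3-phosphoglycerate to serine synthesis, read 12.05 (11.91 to 12.15) in proline replicate 2 and 12.08 (11.92 to 12.18) in proline replicate 1, against 11.42 (11.37 to 11.45) in control replicate 2 and 11.69 (11.57 to 11.78) in control replicate 1. Psph, the last enzyme of the same pathway, read 10.02 (9.98 to 10.09) in proline replicate 2 and 10.21 (10.17 to 10.26) in proline replicate 1, against 10.54 (10.46 to 10.63) in control replicate 2 and 10.64 (10.61 to 10.69) in control replicate 1. In both genes the proline arrays did not overlap the control arrays, above them for Phgdh and below them for Psph. The log2 differences were 0.51 ± 0.14 for Phgdh and -0.47 ± 0.13 for Psph (limma adjusted p = 0.133 for each). Psat1, the step between them, measured 0.03 ± 0.14.

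Aldh1l2, a mitochondrial enzyme that oxidizes 10-formyltetrahydrofolate, read 5.48 (5.41 to 5.52) in proline replicate 2 and 6.51 (6.29 to 6.63) in proline replicate 1, against 6.78 (6.601 to 7.02) in control replicate 2 and 7.31 (7.18 to 7.39) in control replicate 1. The highest proline array lay just above the lowest control array, and the difference was -1.05 ± 0.40 (limma adjusted p = 0.227). Shmt2, the mitochondrial serine hydroxymethyltransferase, measured -0.71 ± 0.30 (adjusted p = 0.267), while Mthfd2, a dehydrogenase of the same folate branch, measured 0.24 ± 0.20. Asns, asparagine synthetase and the classic reporter of amino acid shortage, read 12.47 (12.38 to 12.56) in proline replicate 2 and 11.99 (11.99 to 11.999) in proline replicate 1, against 12.19 (12.15 to 12.20) in control replicate 2 and 12.45 (12.43 to 12.47) in control replicate 1. Each group held a higher and a lower replicate, and the difference was -0.09 ± 0.21, with a 95% interval of -0.65 to 0.46. Of the other enzymes, Pck2, the mitochondrial PEP carboxykinase, measured 0.43 ± 0.22 (SE) and the alanine transaminase Gpt2 0.41 ± 0.16. The transsulfuration enzymes Cbs and Cth measured -0.33 ± 0.23 and -0.01 ± 0.24.

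The synthetases, which attach amino acids to their tRNAs, had small differences, and none of the 14 had an unadjusted p under 0.05 in limma. Log2 differences ran from -0.32 for Hars, the histidine enzyme, to 0.30 for Vars, the valine enzyme, with a median of -0.10, and 13 of 14 lay below 0, against 10198 of 18193 genes. Against control replicate 2 alone, 8 of 14 lay below 0 for proline replicate 2 (median -0.02) and 7 of 14 for proline replicate 1 (median 0.02). Against control replicate 1 the counts were 11 of 14 for proline replicate 2 (median -0.19) and 12 of 14 for proline replicate 1 (median -0.15). Eprs, which charges both glutamate and proline, read 11.60 (11.50 to 11.67) in proline replicate 2 and 11.80 (11.70 to 11.99) in proline replicate 1, against 11.82 (11.78 to 11.85) in control replicate 2 and 12.07 (11.91 to 12.16) in control replicate 1. Proline replicate 2 was lowest and control replicate 1 highest, and the difference was -0.24 ± 0.15 (95% interval -0.64 to 0.16, limma adjusted p = 0.454). The arrays of the groups lay apart for Vars (0.30 ± 0.12, higher in proline) and for Tars, the threonine enzyme (-0.20 ± 0.11, lower). Aars measured -0.28, Cars -0.13, Yars -0.12, Wars -0.10, Mars1 -0.09 and Lars -0.06. Sars measured -0.06, Iars -0.03, Gars -0.03 and Nars -0.02. Over the 14 synthetases the 95% intervals reached from -0.91 to 0.62, so that a 2-fold change of any of them lay outside its interval.

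**Figure D3:**
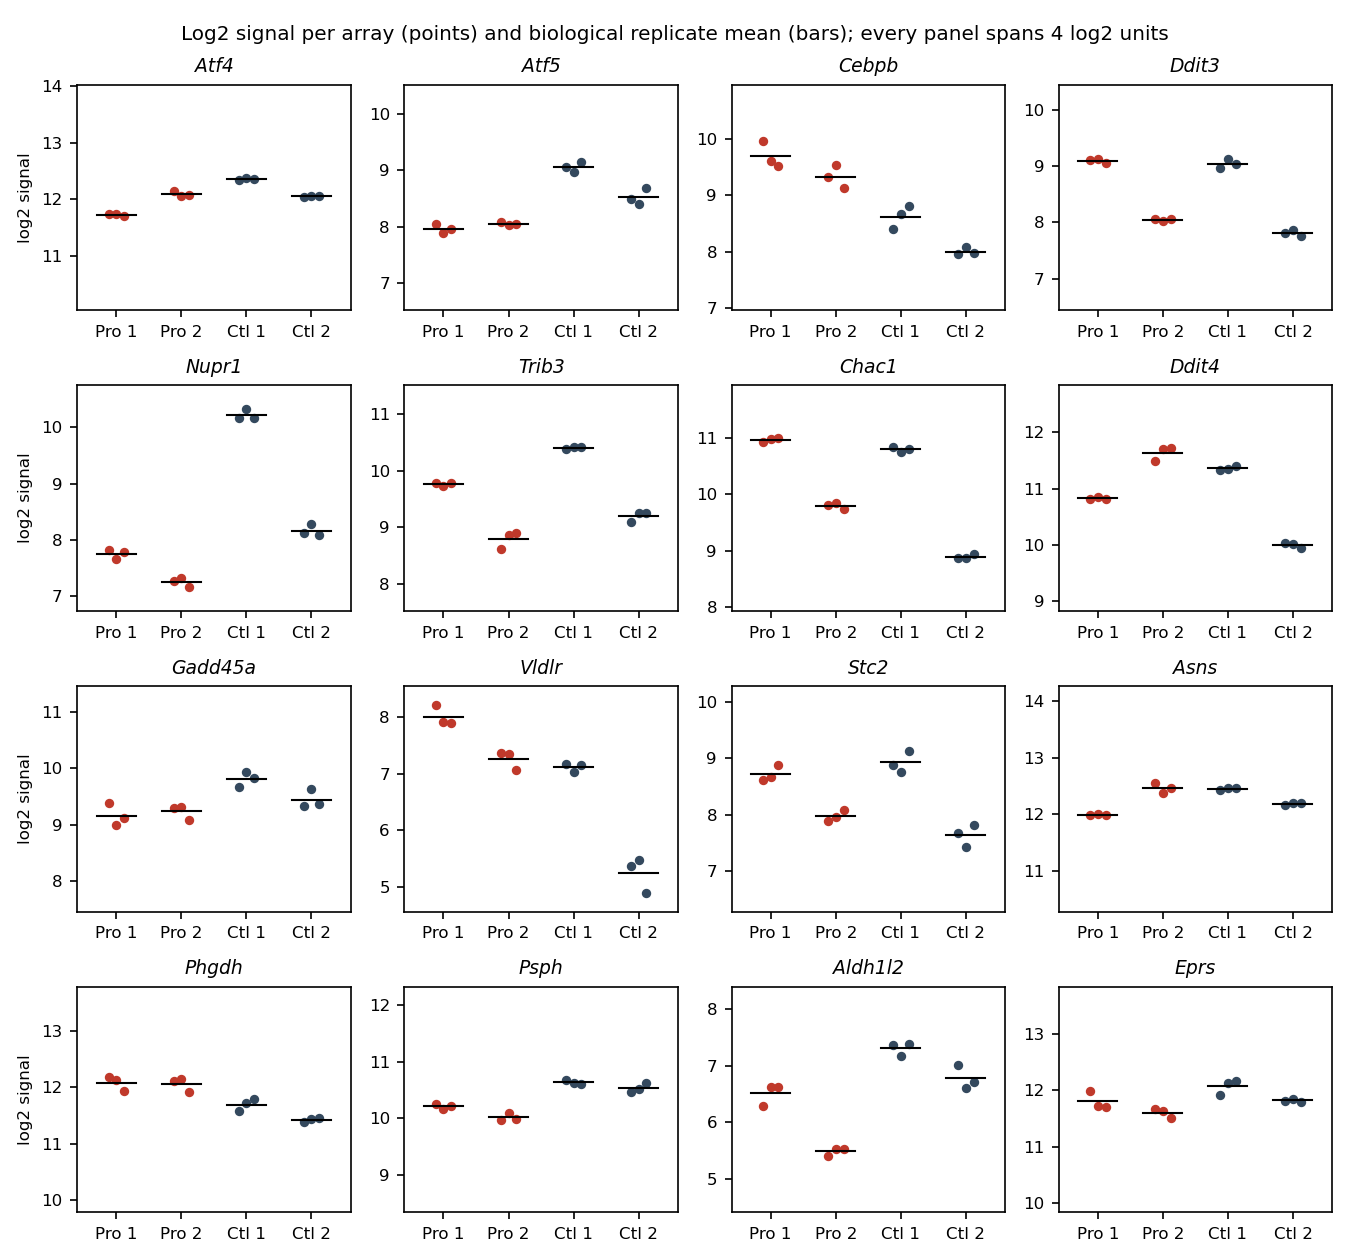
Log2 signal on each array (points) and mean of each biological replicate (bars) for the 16 members described in full, with proline replicates at the left and control replicates at the right of each panel. Ddit3, Trib3, Chac1, Stc2 and Vldlr are lower in replicate 2 in both groups, and the arrays of the groups lie apart for Cebpb, Atf5, Nupr1, Phgdh and Psph.

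The comparison of replicate 2 with replicate 1 within each group is about the spread that the test above rests on. The members were lower in replicate 2 as a list: the median log2 difference, replicate 2 minus replicate 1, was -0.18 in proline and -0.34 in control, against -0.03 and -0.02 over all genes. Below 0 were 29 of 40 members in proline, against 10031 of 18193 genes, and 34 of 40 in control, against 9650 of 18193 genes. The difference was below 0 in both groups for 26 of 40, against 33.0% of all genes. At least 2-fold lower in replicate 2 were 3 of 40 members in proline (0.676% of all genes) and 8 of 40 in control (1.0%), and 0 were 2-fold higher in either group (1.33% and 0.797% of all genes). With 1 culture on each side of these differences there is no test, and the 3 arrays of a culture give technical spread alone. All 3 replicate 2 arrays lay below all 3 replicate 1 arrays for 19 of 40 members in proline (23.4% of all genes) and for 29 of 40 in control (26.3%).

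Chac1 and Ddit3 were at least 2-fold lower in replicate 2 in both groups, as were 0.132% of all genes. Chac1 read 9.80 (9.74 to 9.84) in proline replicate 2, against 10.97 (10.93 to 10.996) in proline replicate 1, and 8.90 (8.87 to 8.94) in control replicate 2, against 10.79 (10.75 to 10.84) in control replicate 1. It was thus 2.26-fold lower in replicate 2 in proline and 3.73-fold lower in control. Ddit3 read 8.05 (8.02 to 8.07) in proline replicate 2, against 9.09 (9.05 to 9.12) in proline replicate 1, and 7.81 (7.76 to 7.87) in control replicate 2, against 9.04 (8.96 to 9.13) in control replicate 1. The folds were 2.06 in proline and 2.35 in control, and within each number the proline and control levels of Ddit3 lay close together, at differences of 0.23 in replicate 2 and 0.05 in replicate 1.

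Trib3, Stc2 and Vldlr followed the same order. Trib3 read 8.79 (8.61 to 8.89) in proline replicate 2, against 9.76 (9.72 to 9.79) in proline replicate 1, and 9.19 (9.09 to 9.24) in control replicate 2, against 10.41 (10.39 to 10.42) in control replicate 1. Stc2 read 7.98 (7.89 to 8.09) in proline replicate 2, against 8.72 (8.62 to 8.87) in proline replicate 1, and 7.64 (7.43 to 7.82) in control replicate 2, against 8.93 (8.76 to 9.13) in control replicate 1. The arrays of replicates 2 and 1 did not overlap for either gene in either group. Vldlr, with the levels given above, differed by -0.75 in proline and -1.87 in control. Herpud1 differed by -0.44 in proline and -1.08 in control, and Nupr1 by -0.50 and -2.05. The Nupr1, Chac1, Trib3 and Vldlr promoters are among those printed above with a response element core, and the Herpud1 window also holds one.

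**Figure D4:**
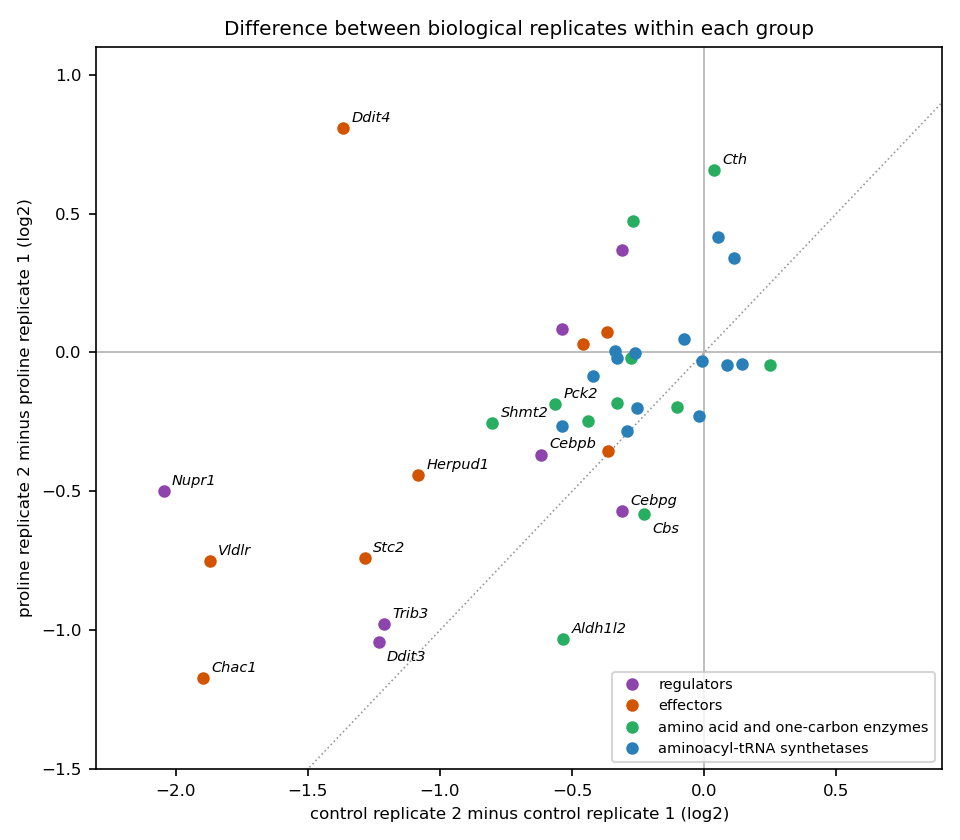
Difference between biological replicates 2 and 1 in control (x axis) and in proline (y axis), in log2 units, for the 40 members by role. The points for Chac1, Ddit3, Trib3, Vldlr, Stc2 and Nupr1 lie at the lower left, the synthetases lie near 0 on both axes, and Ddit4 lies at the upper left (0.81 in proline, -1.37 in control).

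Ddit4, Atf4 and Asns did not share that order between the groups. Ddit4 read 11.64 (11.49 to 11.72) in proline replicate 2, against 10.83 (10.82 to 10.85) in proline replicate 1, and 9.998 (9.95 to 10.03) in control replicate 2, against 11.36 (11.33 to 11.41) in control replicate 1. Replicate 2 was the higher in proline and the lower in control. Atf4 differed by 0.37 in proline and -0.31 in control, and Asns by 0.48 and -0.27, with no overlap of arrays between replicates of a group. All probe sets of Atf4 (3) and Asns (2) measured these directions, and Ddit4 has 1. Of the 40 members, 11 had opposite signs in the groups, against 7661 of 18193 genes. Whether the differences of the groups differ from each other could not be tested with 1 pair of cultures in each.

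By role, the replicate differences were largest in the stress regulators and effectors. On the probe sets kept, all 7 regulators and all 8 effectors were lower in control replicate 2, with medians of -0.62 and -1.18. Their control replicate arrays did not overlap. A dimmer probe set of Eif4ebp1 gave 0.03 in control, and the 6 probe sets of Vldlr gave -2.03 to -0.06. Of all genes, 9650 of 18193 were lower in control replicate 2, and 26.3% had all its arrays below those of control replicate 1. In proline, 5 of 7 regulators and 5 of 8 effectors were lower, with medians of -0.50 and -0.40, against 10031 of 18193 genes. The metabolic enzymes had medians of -0.18 in proline and -0.28 in control, and the synthetases -0.03 and -0.16. Among enzymes, Aldh1l2 differed most in proline (-1.03, against -0.53 in control) and Shmt2 most in control (-0.80, against -0.25 in proline). No synthetase differed by more than 0.54 in size, and Hars was that gene (-0.26 in proline, -0.54 in control). Across the 40 members the replicate difference in proline correlated with that in control at r = 0.54, and across all 18193 genes at r = 0.34. Members share cultures and arrays, so these values describe these 4 cultures.

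Members with and without the response element core were set side by side. The 12 members with the core had a median replicate difference of -0.23 in proline and -0.49 in control, and the 19 with a window but no core had -0.20 and -0.33. Below 0 were 11 of 12 with the core in each group, and 14 of 19 in proline and 18 of 19 in control without it. At least 2-fold lower in control replicate 2 were 5 of the 12 with the core and 3 of the 19 without it (1.0% of all genes). Those 3 without it are Ddit3, Ddit4 and Stc2. Of the 12 with the core, 5 are synthetases with small differences. Vldlr, counted with the core, has a second window, chr19:27216234-27216533, that does not hold it.

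Control replicate 1 was the highest of the 4 cultures for 22 of 40 members (31.7% of all genes), and the sign of the median differed with the cultures set against each other. The median over members was -0.18 for proline 1 minus control 1, 0.07 for proline 1 minus control 2, -0.27 for proline 2 minus control 1 and 0.05 for proline 2 minus control 2. These 4 differences share their cultures and are not independent. For the regulators the 4 medians were -0.64, 0.57, -0.997 and 0.04 in that order, and for the effectors -0.25, 0.95, -0.52 and 0.48. For the synthetases they stayed between -0.19 and 0.02. Chac1 ran from -0.998 for proline 2 minus control 1 to 2.07 for proline 1 minus control 2.

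**Figure D5:**
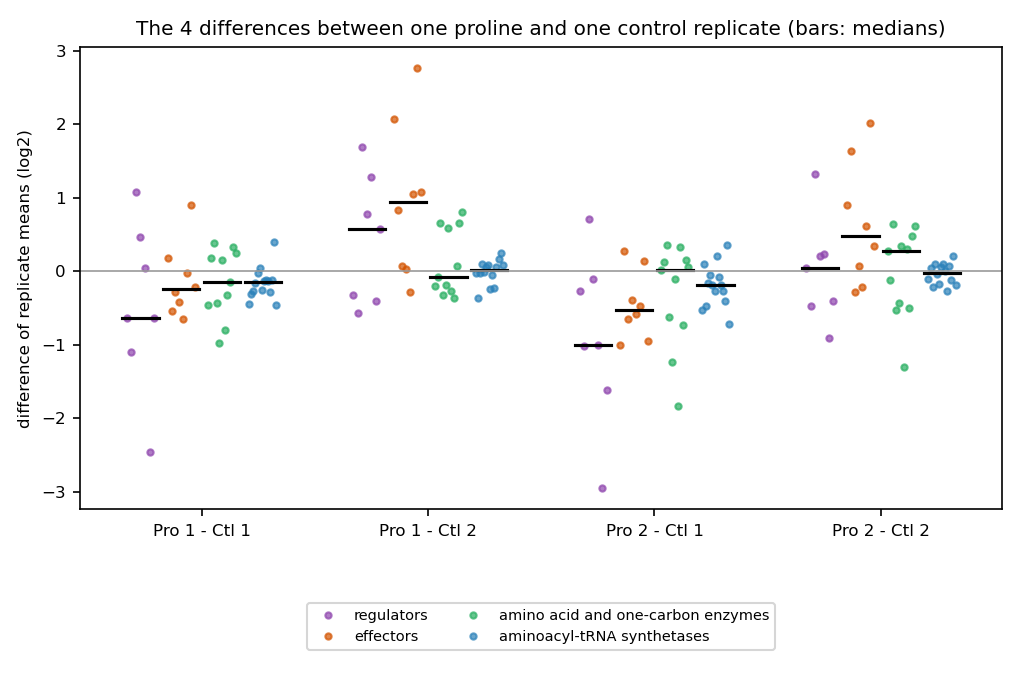
Log2 differences of each proline replicate from each control replicate for the 40 members by role (points, with medians as bars). Medians of regulators and effectors lie below 0 against control replicate 1 and above 0 against control replicate 2, while the synthetases stay near 0.

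Other genes of the pathway were taken from 7 further lists. Of 8 other ATF4 targets measured, 0 passed the threshold in limma and 1 had an unadjusted p under 0.05, against 22.1% of all genes. This was Atf3, a bZIP factor induced by ATF4, at 1.72 ± 0.46 (limma adjusted p = 0.122). It read 8.82 and 9.23 in proline replicates 2 and 1, against 6.66 and 7.94 in control replicates 2 and 1. Fgf21, a hormone secreted under amino acid stress, measured 0.34 ± 0.19. The replicate differences of the list had medians of -0.18 in proline and -0.58 in control. Atf3, Jdp2 and Adm2 were at least 2-fold lower in replicate 2 in control (1.0% of all genes). Jdp2 and Adm2, chosen after their values were seen, differed by 0.26 and -0.52 in proline and by -1.77 and -1.07 in control.

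The kinases and phosphatase subunits that act on eIF2, with eIF2 and its exchange factor eIF2B, held 0 of 14 past the threshold. In limma 4 of the 14, all lower, had an unadjusted p below 0.05. Over all genes 22.1% had such a p in either direction, and 1696 of 18193 had it with a lower value in proline. Eif2ak3, which encodes PERK, measured -0.58 ± 0.11 (limma adjusted p = 0.0691) and Eif2ak1, which encodes HRI, -0.59 ± 0.15 (adjusted p = 0.109). Eif2ak3 read 8.48 and 8.44 in proline replicates 2 and 1, against 9.01 and 9.06 in control replicates 2 and 1, with replicates close together. Eif2ak4, the GCN2 gene, chosen after its values were seen, measured 0.39 ± 0.19. Ppp1r15a, the stress-induced phosphatase subunit GADD34 and a CHOP target, chosen after its values were seen, was lower in replicate 2, at -0.81 in proline and -0.67 in control. The list medians were -0.13 and -0.07.

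Chaperones and regulators of the unfolded protein response were measured beside the stress members. Their medians of replicate 2 minus replicate 1 were 0.17 in proline and 0.04 in control, with 5 of 14 below 0 in proline and 7 of 14 in control. For proline against control, 0 of 14 passed and 5 had an unadjusted p under 0.05 in limma (22.1% of all genes), the smallest for Ern1, the sensor IRE1 (0.52 ± 0.13, limma adjusted p = 0.119), and Xbp1, the factor it splices (-0.79 ± 0.25, adjusted p = 0.165). Gadd45a and Sesn2 are also targets of p53, and 12 other p53 targets had replicate differences with medians of 0.48 in proline and 0.31 in control, above 0 for 10 and 8 of 12. In that list 1 of 12 passed the threshold (4.36% of all genes) and 2 had an unadjusted p under 0.05 in limma (22.1% of all genes). The gene that passed was Pmaip1, the BH3-only death gene Noxa, which measured 1.13 ± 0.18 (limma adjusted p = 0.0498, just under the threshold). It read 9.61 and 9.94 in proline replicates 2 and 1, against 8.80 and 8.49 in control replicates 2 and 1, and 11 of 12 did not pass, among them Bbc3 (0.45 ± 0.15).

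Synthetases outside the 40 members gave the following values. Of 8 further cytosolic enzymes and scaffold proteins, 0 passed and 1 had an unadjusted p under 0.05 in limma (22.1% of all genes), the arginine enzyme Rars (-0.42 ± 0.14). The scaffold gene Aimp1 measured -0.30 ± 0.16. Of 16 mitochondrial synthetases, 0 passed and 5 had an unadjusted p under 0.05 in limma (22.1% of all genes), the smallest for Hars2 (-0.44 ± 0.12) and Cars2 (-0.45 ± 0.14). Replicate 2 minus replicate 1 had medians of -0.10 in proline and -0.12 in control for the mitochondrial list. Other folate and one-carbon enzymes held 0 of 8 past the threshold, with 4 below 0.05 before adjustment in limma, again against 22.1% of all genes. Shmt1, the cytosolic counterpart of Shmt2, measured -0.58 ± 0.13 (limma adjusted p = 0.0875) and Ahcy, of the methionine cycle, 0.43 ± 0.13 (adjusted p = 0.145).

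Several probe sets existed for 27 members, and proline minus control had the same direction in each of them for 23 genes, as did the replicate difference for 19 genes in proline and 21 in control. The probe sets of Ddit3, Trib3, Stc2, Vldlr, Nupr1 and Herpud1 each measured replicate 2 lower in both groups. Those of Gpt2, Cebpg and Shmt2 were among those that disagreed in direction between replicates of proline, and those of Psat1, Iars, Cars and Wars disagreed for proline minus control. Between replicates of control, those of Eif4ebp1, Cbs, Phgdh, Psat1, Iars and Nars disagreed.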

How the data were processed

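The 12 arrays were grouped by their titles into proline and control, each with 2 biological replicates of 3 arrays. For 45101 probe sets the authors deposited 1 log2 value per array, already normalized. MAS5 and RMA are named in the submitters' processing notes, and which of them made the values is not given in the sources used here. Values ran from 2.10 to 14.8, with array medians of 5.99 to 6.03. No detection calls were used, and the 2 biological replicates per group limit the precision.

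GEO's platform annotation, checked by gene ID against RefSeq (GRCm38.p6), gave 34945 probe sets 1 symbol, while 932 with several were left out. For each of 18193 genes the brightest probe set on average was kept. Arrays of a biological replicate were averaged, and limma 3.58.1 (R 4.3.3) compared the groups by lmFit and eBayes, two-sided, on 2 residual and 2.60 prior degrees of freedom, with Benjamini-Hochberg adjustment over all genes. Errors are moderated standard errors. The procedure was also run on simulated data with independently drawn replicates, which lack the differences by replicate number seen here. No result above rests on that run. Replicate 2 minus replicate 1 was computed without a test. Promoter sequences and start sites are from RefSeq.

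The members and lists were chosen with earlier results of these data known. Values of every replicate are given for the 6 members with the smallest p, the 6 with the largest replicate differences in each group, and Atf4, Asns, Chac1, Trib3, Ddit3 and Eprs. Of the other lists, genes past the threshold and the 2 with the smallest p are named. Alternatives covered normalization, dim genes, probe sets, blocks, an intensity trend and leaving out replicates and arrays. Some listed genes are not reported here. Plots were drawn with matplotlib 3.10.9.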

Additional observations from a re-analysis of the deposited data

Results flagged for a closer look

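Among 80 sets of 6 arrays (40 members in 2 groups), 2 held an array whose gap to the nearest other array was a large share of the whole range, and chance gives about 1 in 20 such sets. For Psat1 in proline the gap was 0.759 of the range, with 1 array of proline replicate 2 at 12.40 and the other 5 between 12.51 and 12.54. For Cars in control it was 0.663 of the range, with 1 array of control replicate 2 at 10.49 and the other 5 between 10.35 and 10.40. Both gaps are small in log2 units, and both genes are far from the threshold in the comparison of proline with control (limma adjusted p = 0.938 and 0.748).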

How the results depend on the processing

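The count of 0 members past the threshold in limma held under quantile normalization, median centring, leaving out dim genes, the median over probe sets, every probe set by itself, an intensity trend, and leaving out each replicate or array. It became 8 with the 12 arrays in a random block (Cebpb, Vldlr and Phgdh higher, Nupr1, Aldh1l2, Atf5, Shmt2 and Psph lower), when 21.9% of all genes passed. With the replicate number as a block (replicate block) it became 3 (Cebpb, Vldlr and Aldh1l2), when 11.2% of all genes passed. The titles do not say that the numbers mark shared cultures or days, and 2 numbers are too few to show it, so this fit is no part of the results above. The cause of these changes was not tested.

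The median member difference, proline minus control, ran from -0.25 without control replicate 2 to 0.000482 without control replicate 1. For control replicate 2 minus 1 it was -0.30 under quantile normalization and -0.369 to -0.310 with 1 array left out. For proline replicate 2 minus 1 it was -0.116 with the median over probe sets, and -0.193 to -0.123 with 1 array left out. For proline 1 minus control 1 it was -0.163 with the median over probe sets and -0.224 to -0.174 with 1 array left out. Directions of single members reversed when a replicate was left out for 6 of the 16 described in full. Their ranges were -0.48 to 0.76 for Ddit3, -1.13 to 0.0824 for Trib3, -0.41 to 1.49 for Chac1, -0.13 to 1.23 for Ddit4, -0.58 to 0.71 for Stc2 and -0.33 to 0.15 for Asns.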
